A study of Mus musculus with 6 samples.

Results

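The genes described here carry fatty acids into heart muscle cells and oxidise them in mitochondria. They were chosen by name, with earlier results of these data known, as 40 genes of lipoprotein lipolysis, uptake, activation, the carnitine shuttle and beta-oxidation. For each symbol the transcript cluster (the array's unit for a gene) with the highest mean signal was used. Of the 40 genes 37 were measured, among 30063 genes in all. Acsl3 and Etfb lay in clusters that carry several symbols, and Acsl1 was matched to no cluster, so these 3 were not analysed here.

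Ventricular heart tissue of 6 male mice was hybridised, 1 Affymetrix array per mouse. All 6 mice were dystrophin-deficient (mdx) and utrophin haplo-insufficient (utrn+/-), the "Het" model on a C57BL/10 background, so both groups carry the same dystrophic genotype and no healthy mice were analysed here. Finerenone, a non-steroidal blocker of the mineralocorticoid receptor, was given to 3 mice at 100 ppm in the chow from weaning at 4 weeks of age. The 3 untreated mice ate that chow without the drug, and all were killed at 20 weeks of age. The comparison asks which transcripts differ in dystrophic hearts given the drug.

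The heart takes most of its energy from fatty acids. Lipoprotein lipase (Lpl), held on capillary walls by Gpihbp1, frees them from circulating triglyceride, and Cd36, Slc27a1 and binding proteins bring them into the cell. Acyl-CoA synthetases activate them, the carnitine palmitoyltransferases pass them into the mitochondrion, and a cycle of dehydrogenase, hydratase, second dehydrogenase and thiolase steps shortens them, with electrons leaving through the electron transfer flavoprotein. Many of these genes are known targets of the fatty acid receptors of the PPAR family.

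Signals are on a log2 scale, and each difference is finerenone minus untreated. The cardiomyocyte marker Tnnt2 measured 19.92 to 19.93 on all 6 arrays, while the adipocyte marker Adipoq measured 3.92 to 4.63, under the middle of the negative controls (medians 5.04 to 5.33 by array). Some other adipocyte markers lay above that middle, such as Slc36a2 at 5.72 to 6.73. Untreated replicate 1 stood apart: albumin (Alb), made by hepatocytes, measured 16.69 there and 4.10 to 4.38 on the other 5 arrays, and all 9 measured hepatocyte markers were highest on that array. Since liver also expresses many genes of fatty acid oxidation, the counts are given with and without that array, and so are single genes whose difference moved by over 1.5 times or turned its sign. Its part in the results was not tested further. Signal also had a ceiling: among 171 genes with a mean of 19 or more, the median distance between the highest and lowest array was 0.0032, against 0.785 for 458 genes between 14 and 16.

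The listed genes of uptake, the carnitine shuttle and its malonyl-CoA control had negative differences, with no gene past adjustment. Of these 12 genes 3 had an unadjusted p below 0.05 (2.12% of all genes on the lower side). It was again 3 without untreated replicate 1 (1.93% of all genes). The listed matrix enzymes had differences on both sides of 0. All 6 genes of lipolysis and uptake and all 6 of the carnitine shuttle and its malonyl-CoA control were lower, each group with a median difference of -0.22. A further 16 genes of uptake and carnitine handling did not share this direction, with 9 higher and a median of 0.05. The 16 measured enzymes of matrix oxidation had a median of 0.05, with 11 higher and 5 lower. Over all 37 genes the median was -0.05, with 15 higher and 22 lower, beside a median of 0.03 over all genes tested.

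No single gene passed the test after adjustment. With limma and Benjamini-Hochberg adjustment over all 30063 genes, 0 genes were called at an adjusted p below 0.05 (0% of all genes), and the smallest adjusted p was 0.597. At an unadjusted p below 0.05, 2347 genes were counted. That count held 5 of the 37 pathway genes on the lower side (13.5%, against 2.12% of all genes) and 0 on the higher side (against 5.69% of all genes). The 5 were Vldlr, Slc27a1, Acot1, Acot2 and Cpt1b. As the pathway genes were chosen with earlier results of these data known, their shares are a description only. Every untreated array lay above every finerenone array for 6 of 37 genes (16.2%, against 4.17% of all genes), which were Vldlr, Cd36, Slc27a1, Acot2, Cpt1b and Crat. The reverse held for Acot13 and Hadh (5.41%, against 8.17% of all genes).

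Without untreated replicate 1, 5 genes were again on the lower side at an unadjusted p below 0.05 (1.93% of all genes) and 0 on the higher side (4.5% of all genes). These were Vldlr, Slc27a1, Plin5, Acot2 and Cpt1b, so Acot1 left the count and Plin5 entered it. Groups did not overlap for 7 genes on the lower side (8.36% of all genes) and 3 on the higher side (13.9% of all genes). The uptake and carnitine genes were then lower in 11 of 12 cases, with a median of -0.24. The matrix enzymes were then split, with 7 higher and 9 lower. Without finerenone replicate 1 the count on the lower side was 1 of 37, beside 632 of all 30063 genes. It was 3 of 37 without finerenone replicate 2, beside 500 of all genes.

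**Figure D1:**
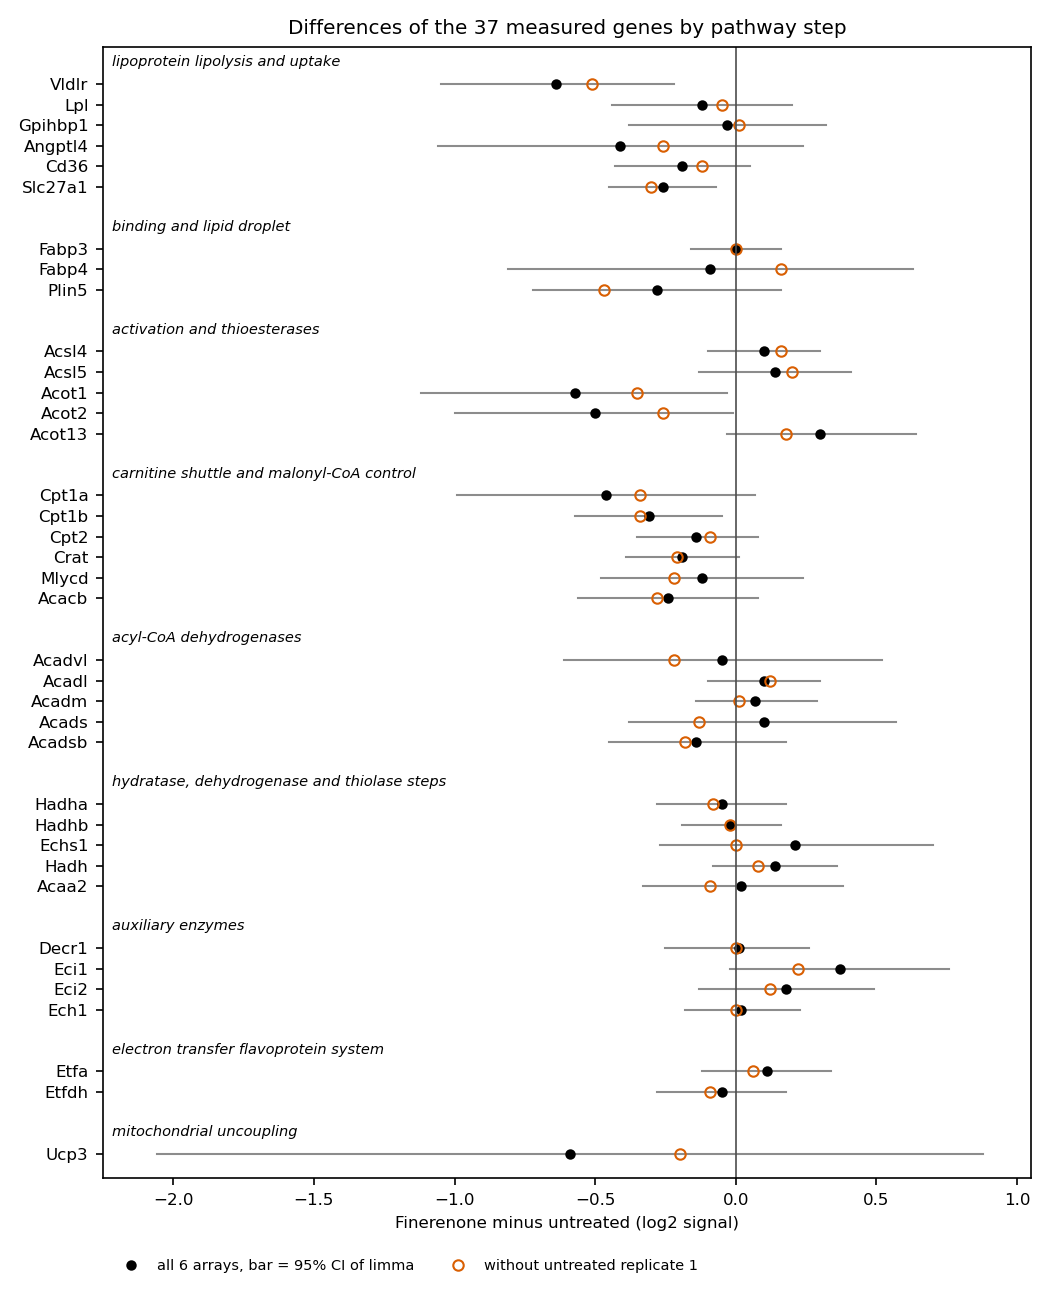
Difference in log2 signal (finerenone minus untreated, horizontal axis) of the 37 measured genes, grouped by pathway step. Black points use all 6 arrays with the 95% confidence interval of the limma fit, and open circles leave out untreated replicate 1. All 12 black points of the uptake and carnitine groups lie below 0, while those of the matrix enzymes lie on both sides.

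Vldlr, the receptor that binds triglyceride-rich lipoproteins at the capillary wall, had the widest difference of the pathway genes. It measured 12.56, 12.05 and 12.44 in the finerenone arrays and 13.24, 12.89 and 12.84 in the untreated ones. The groups did not overlap, with means of 12.35 ± 0.27 and 12.99 ± 0.22 (SD, n = 3 each). The difference was -0.64 ± 0.17 (SE), or 1.56-fold lower, with a 95% confidence interval of -1.05 to -0.22 (limma unadjusted p = 0.00869, adjusted p = 0.597). Without untreated replicate 1 it was -0.51 ± 0.17 (limma unadjusted p = 0.0258).

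Slc27a1, a fatty acid transport protein of the plasma membrane, varied little within each group (SD 0.05 with finerenone and 0.08 without). It measured 8.93, 9.03 and 9.01 with finerenone and 9.16, 9.27 and 9.32 without. Every finerenone array was below every untreated array, and the difference was -0.26 ± 0.08 (SE, limma unadjusted p = 0.0165). It moved only between -0.30 and -0.22 when single arrays were left out, and was -0.30 without untreated replicate 1.

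Cd36, the main fatty acid translocase of heart muscle, lay in the range where the array compresses differences. Its values were 19.25, 19.26 and 19.25 in treated hearts and 19.57, 19.27 and 19.48 in untreated ones. The finerenone values were all lower, but untreated replicate 2 nearly met them. The difference was -0.19 ± 0.10 (SE), and -0.12 without untreated replicate 1.

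Lpl, which splits triglyceride into free fatty acids, measured 17.61, 17.61 and 17.90 with finerenone and 17.96, 17.61 and 17.90 without. The groups overlapped in full, and the difference was -0.12 ± 0.13 (SE, 95% confidence interval -0.44 to 0.20), or -0.05 without untreated replicate 1. Gpihbp1, its anchor on capillary endothelium, differed by -0.03 ± 0.14, turning to 0.01 without untreated replicate 1. Angptl4, a secreted inhibitor of Lpl, measured 5.15, 5.55 and 5.01 against 5.95, 5.93 and 5.06, near the median of the negative controls, and differed by -0.41 ± 0.27, or by -0.26 without that array.

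Markers of other cell types differed beside the uptake genes. All 11 measured endothelial markers were lower with finerenone, with a median of -0.35, 2 of them at an unadjusted p below 0.05 (2.12% of all genes). Kdr, the VEGF receptor of endothelium, differed by -0.86 ± 0.27 (SE). Their summed signal was 15.46 to 15.67 in treated and 15.69 to 16.62 in untreated arrays. Without untreated replicate 1 the median was -0.10 with 8 of 11 lower. All 12 macrophage markers had positive differences, with a median of 0.32, though Csf1r was at 0.00 ± 0.18. Their summed signals of 16.01 to 16.82 in treated and 15.35 to 16.09 in untreated arrays came mostly from Lyz2. Lyz2 measured 16.66, 15.81 and 15.87 against 15.07, 15.88 and 15.13. Without untreated replicate 1 all 12 were again positive with a median of 0.26, and Csf1r was at 0.03 ± 0.22. Of 9 fibroblast markers 8 were higher, with a median of 0.17, or 0.16 without that array. The 8 measured adipocyte markers had a median of 0.00, with 4 higher and 4 lower. Adipoq and Plin1, both near the negative controls, were lower at an unadjusted p below 0.05 (2.12% of all genes). Without untreated replicate 1 the adipocyte median was 0.01, with Adipoq alone at such a p (1.93% of all genes). In bulk tissue fewer cells of a type and less RNA per cell cannot be told apart, and the part of these cell types in the pathway genes was not tested. The 11 cardiomyocyte markers had a median of 0.00, with summed signals of 21.48 to 21.52 and 21.48 to 21.55, but Myh6, Tnnt2, Pln, Mb and Myl3 among them varied by at most 0.05 over the 6 arrays. Without untreated replicate 1, 10 of 11 were lower with a median of -0.02, with Myh6, Tnnt2, Mb and Myl3 among the 10. Groups did not overlap for 3 (27.3%, against 8.36% of all genes). These were Mybpc3 at -0.48 ± 0.16 (SE), Tnni3 at -0.13 ± 0.08 and Myl3 at -0.00, where the sign carries little meaning. With all 6 arrays Mybpc3 differed by -0.20 ± 0.26, Tnni3 by 0.00 ± 0.12 and Myl3 by 0.01 ± 0.07. The groups then overlapped for every cardiomyocyte marker.

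Among the proteins that hold fatty acids inside the cell, Fabp3, the heart fatty acid binding protein, measured 19.31 on every array and could show no difference there. Fabp4, the binding protein of capillary endothelium and fat, ran from 15.73 to 16.54 in treated and from 15.75 to 16.58 in untreated hearts. Its difference was -0.09 ± 0.30 (SE) and became 0.16 without untreated replicate 1. Plin5, which coats lipid droplets and tethers them to mitochondria, measured 8.90, 8.83 and 8.76 against 8.73, 9.47 and 9.13. Untreated replicate 1 was the lowest of all 6 there, and the difference of -0.28 ± 0.18 became -0.47 ± 0.13 without it (limma unadjusted p = 0.0133).

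**Figure D2:**
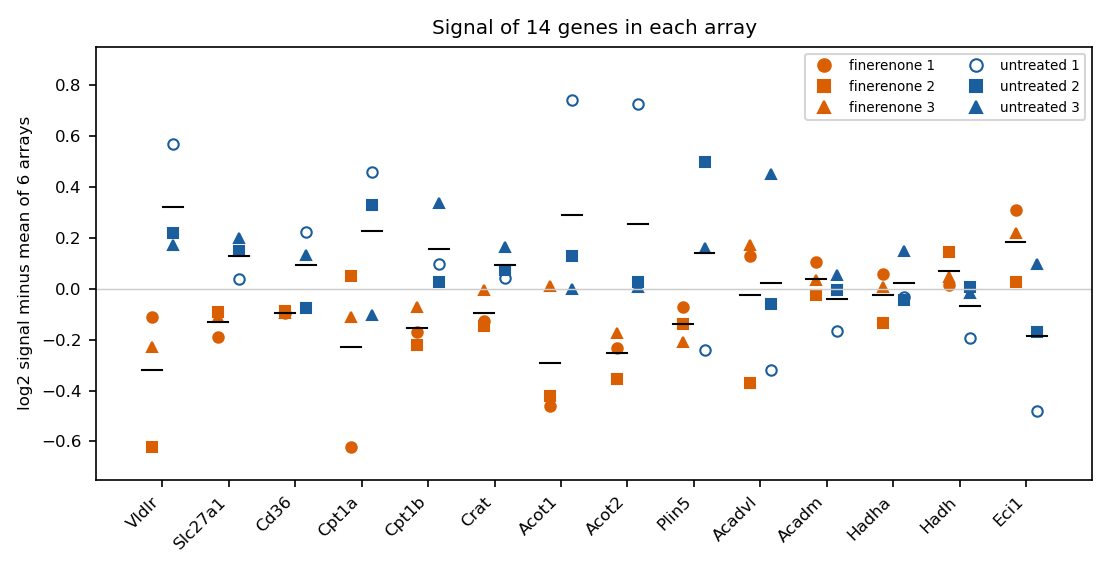
Log2 signal of 14 pathway genes in each array (vertical axis), minus that gene's mean over the 6 arrays. Orange marks are finerenone and blue marks untreated arrays, shapes give the replicate number, the open circle is untreated replicate 1, and bars are group means. Vldlr, Slc27a1, Cd36, Cpt1b, Crat and Acot2 show no overlap with finerenone lower, and Hadh shows none with finerenone higher.

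The step of activation and its reversal was split, and of the listed synthetases only Acsl4 and Acsl5 were measured, without Acsl1 and Acsl3. Acsl4 and Acsl5, synthetases that join coenzyme A to long-chain fatty acids, differed by 0.10 ± 0.08 and 0.14 ± 0.11 (SE), with overlapping groups, and Acsl4 by 0.16 without untreated replicate 1. The thioesterases Acot1 (cytosolic) and Acot2 (mitochondrial), which split acyl-CoA back into fatty acid and coenzyme A, were both lower. Acot2 measured 15.15, 15.03 and 15.21 with finerenone and 16.11, 15.41 and 15.39 without. The groups did not overlap, with untreated replicate 1 far above the other 2 untreated arrays. Its difference was -0.50 ± 0.20 (limma unadjusted p = 0.0465), and -0.26 ± 0.09 without that array (limma unadjusted p = 0.0343).

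Acot1 measured 7.11, 7.15 and 7.58 against 8.31, 7.70 and 7.57. Every value was under the 95th percentile of the negative controls of its array (8.35 to 8.73). Finerenone replicate 3 and untreated replicate 3 met in the middle. The difference was -0.57 ± 0.23 (SE, limma unadjusted p = 0.0413), and -0.35 ± 0.17 without untreated replicate 1 (limma unadjusted p = 0.0883). Acot1 and Acot2 are close paralogs, so their probes may share signal and the values of the pair are not independent.

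Since the pair start 21641 bases apart on chromosome 12 and differed in the same direction, the 250 bases before each start are shown, from the RefSeq promoter table (GRCm38.p6, plus strand, chr12:84009252-84009501 for Acot1 and chr12:83987611-83987860 for Acot2). Capitals mark the CCAAT box, read as CCAAT or its reverse complement ATTGG.
Acot1: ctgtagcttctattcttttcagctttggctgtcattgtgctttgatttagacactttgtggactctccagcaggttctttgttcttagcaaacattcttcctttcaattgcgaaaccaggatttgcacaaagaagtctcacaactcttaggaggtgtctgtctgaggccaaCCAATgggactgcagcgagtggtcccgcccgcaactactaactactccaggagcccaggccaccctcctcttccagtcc
Acot2: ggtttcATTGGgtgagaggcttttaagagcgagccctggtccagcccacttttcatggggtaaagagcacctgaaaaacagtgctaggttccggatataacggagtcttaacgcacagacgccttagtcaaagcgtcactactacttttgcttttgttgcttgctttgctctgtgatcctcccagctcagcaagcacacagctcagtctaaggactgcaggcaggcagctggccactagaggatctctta

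Each window holds a single CCAAT box, in opposite orientations, and the longest run of bases they share on the same strand is 9. CCAAT in either orientation occurs in 33.8% of all 32851 promoter windows of that length. Among the listed genes with a window, 17 of 31 had it. Of the 40 listed genes 31 had a window in the table, and in these 300-base windows 0 held a match to the PPAR/RXR direct repeat with a spacer of 1 base (0.381% of all windows did), to the estrogen-related receptor element TNAAGGTCA (1.28%) or to the corticosteroid receptor palindrome (0.475%), on either strand. This says only that these letters are not in these windows.

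Acot13, another thioesterase, measured 17.68 on all 3 finerenone arrays and 17.12, 17.65 and 17.35 on the untreated ones. The treated values were all higher, with an SD of 0.00 and with untreated replicate 2 close below them. Whether this cluster was at a ceiling of its own was not tested. The difference was 0.30 ± 0.14 (SE), and 0.18 ± 0.11 without untreated replicate 1. After quantile normalization, median centring or cyclic loess neither Acot13 nor Hadh kept its separation.

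All 6 listed genes of the carnitine shuttle and its malonyl-CoA control had negative differences, while 2 carnitine transporters outside the list, described further on, had positive ones. Of these transporters Slc22a5 was under the 95th percentile of the negative controls on every array. Cpt1b, the muscle form of carnitine palmitoyltransferase 1 and the entry gate of long-chain fatty acids to the mitochondrion, measured 14.70, 14.65 and 14.80 with finerenone and 14.97, 14.90 and 15.21 without. The groups did not overlap. The difference was -0.31 ± 0.11 (SE), or 1.24-fold lower, with a 95% confidence interval of -0.57 to -0.05 (limma unadjusted p = 0.0265). It was -0.34 ± 0.13 without untreated replicate 1.

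Cpt1a, the form that predominates in liver, measured 9.66, 10.33 and 10.17 against 10.74, 10.61 and 10.18. Only finerenone replicate 1 was far below the rest, and the groups overlapped. The difference of -0.46 ± 0.22 (SE) became -0.34 when the array with hepatocyte transcripts, untreated replicate 1, was left out. Leaving out finerenone replicate 1 gave -0.26. Crat, which moves short acyl groups between carnitine and coenzyme A, measured 12.83, 12.81 and 12.95 against 13.00, 13.03 and 13.12. Its groups did not overlap and differed by -0.19 ± 0.08 (limma unadjusted p = 0.0568).

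Cpt2, which returns the acyl group to coenzyme A inside the mitochondrion, differed by -0.14 ± 0.09 (SE), or by -0.09 without untreated replicate 1. Acacb makes malonyl-CoA, the inhibitor of the Cpt1 enzymes, and Mlycd breaks it down. Acacb differed by -0.24 ± 0.13 and Mlycd by -0.12 ± 0.15, which was -0.22 without untreated replicate 1 and turned to 0.02 without untreated replicate 3. None of the 6 had an adjusted p below 0.607 in limma.

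The matrix enzymes of the oxidation spiral differed little. Acadvl, the dehydrogenase for very long chains, measured 14.92, 14.42 and 14.96 with finerenone and 14.47, 14.73 and 15.24 without. The groups overlapped widely, and the difference was -0.05 ± 0.23 (SE, 95% confidence interval -0.61 to 0.52), or -0.22 without untreated replicate 1. Acadm, the medium-chain enzyme, measured 17.06, 16.93 and 16.99 against 16.79, 16.95 and 17.01. Its values were lowest on untreated replicate 1, and the difference was 0.07 ± 0.09 with an interval of -0.14 to 0.29, or 0.01 without that array. Acadl, for long chains, differed by 0.10 ± 0.08 near the ceiling (18.36 to 18.61), Acads, for short chains, by 0.10 ± 0.20 and Acadsb, for short branched chains, by -0.14 ± 0.13. Acads turned to -0.13 without untreated replicate 1.

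The trifunctional protein, which carries out the later steps for long chains, is built from Hadha and Hadhb. Hadha measured 16.78, 16.59 and 16.73 against 16.69, 16.68 and 16.87, a difference of -0.05 ± 0.09 (SE), or -0.08 without untreated replicate 1. Hadhb measured 18.03, 17.92 and 18.01 against 18.00, 18.00 and 18.02, a difference of -0.02 ± 0.07. Both groups overlapped for each gene, and the 95% confidence intervals were -0.28 to 0.18 and -0.19 to 0.16.

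The 2 genes start back to back on chromosome 5. The 272 bases between their starts, which serve as the upstream sequence of both, are shown because the subunits are paired in the protein and had like differences. They are read on the plus strand from the RefSeq promoter table (GRCm38.p6, chr5:30154981-30155252), with Hadha leaving to the left and Hadhb to the right, and capitals mark CG dinucleotides.
Hadha-Hadhb: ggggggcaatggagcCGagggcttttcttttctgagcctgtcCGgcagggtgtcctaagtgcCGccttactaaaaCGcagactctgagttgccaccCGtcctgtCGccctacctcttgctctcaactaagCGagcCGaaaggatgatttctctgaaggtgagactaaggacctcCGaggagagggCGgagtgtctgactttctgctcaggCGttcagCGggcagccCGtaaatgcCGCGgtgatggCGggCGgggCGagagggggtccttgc

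This stretch holds 18 CG dinucleotides and is 60.3% G or C, where the median over all promoter windows is 52.7% and that over the windows of the listed genes is 60.7%.

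Of the remaining spiral enzymes, Hadh, the dehydrogenase for medium and short chains, measured 16.19, 16.32 and 16.22 with finerenone and 15.98, 16.18 and 16.16 without. Its groups did not overlap, though the nearest arrays lay close together, and the difference was 0.14 ± 0.09 (SE), 0.08 without untreated replicate 1 and -0.12 after quantile normalization. Echs1, the short-chain hydratase, differed by 0.21 ± 0.20 and by -0.00 without untreated replicate 1. Acaa2, the matrix thiolase, differed by 0.02 ± 0.15 and by -0.09 without that array.

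Auxiliary enzymes let unsaturated fatty acids enter the spiral. All 4 measured had positive differences, with a median of 0.10. Eci1, an isomerase that moves the double bond, measured 12.28, 12.00 and 12.19 against 11.49, 11.80 and 12.07. Only untreated replicate 3 reached the treated range, and the difference was 0.37 ± 0.16 (SE, limma unadjusted p = 0.0612), or 0.22 ± 0.14 without untreated replicate 1. Eci2 differed by 0.18 ± 0.13 (0.12 without that array), Ech1 by 0.02 ± 0.09 and Decr1, the dienoyl-CoA reductase, by 0.01 ± 0.11. Signs for Ech1 and Decr1 turned under quantile normalization and cyclic loess, and that for Decr1 also under median centring. Ech1 was at -0.00 and Decr1 at 0.00 without untreated replicate 1.

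Of the electron transfer flavoprotein, which takes electrons from the acyl-CoA dehydrogenases, the alpha subunit Etfa differed by 0.11 ± 0.10 (SE), or by 0.06 without untreated replicate 1. Etfdh, which hands those electrons to ubiquinone, differed by -0.05 ± 0.10, or by -0.09 without that array.

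**Figure D3:**
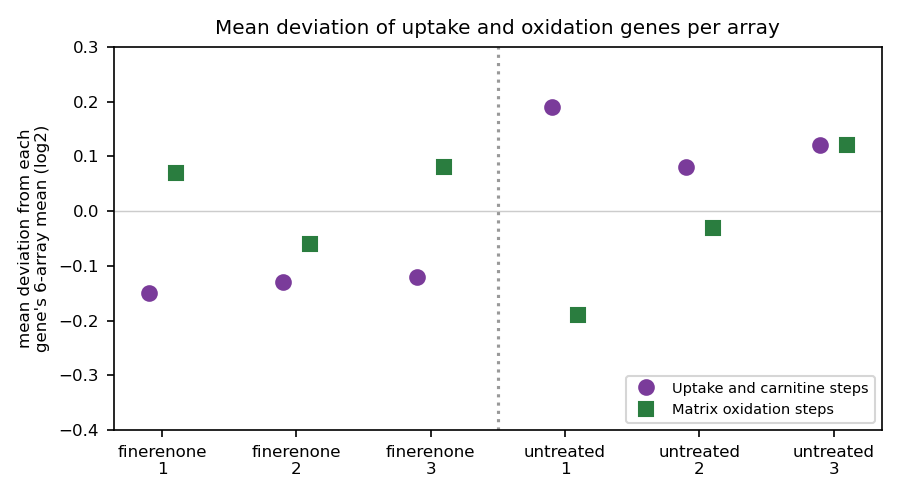
Mean deviation of 12 uptake and carnitine genes (circles) and 16 matrix oxidation genes (squares) in each array, in log2 units from each gene's mean over the 6 arrays. The circles are at -0.15, -0.13 and -0.12 in the finerenone arrays and at 0.19, 0.08 and 0.12 in the untreated ones, while the squares of both groups overlap.

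Averaged per array, the 12 uptake and carnitine genes deviated from their 6-array means by -0.15, -0.13 and -0.12 in the finerenone arrays and by 0.19, 0.08 and 0.12 in the untreated arrays. The 16 matrix enzymes deviated by 0.07, -0.06 and 0.08 and by -0.19, -0.03 and 0.12. The lowest matrix value was on untreated replicate 1, the array where the uptake and carnitine genes were highest. Joining the 2 steps into 1 group was done after their values were seen, so the averages are a description.

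The direction of the matrix enzymes depended on how the arrays were scaled, and that of the uptake and carnitine genes did not. Bright genes as a class had mostly positive differences: 1830 genes with a mean of at least 12 had a median difference of 0.16 in the deposited values, 0.06 after quantile normalization and 0.07 after cyclic loess. The 12 uptake and carnitine genes were all lower under each of these, with medians of -0.22, -0.30 and -0.28. Of the 16 matrix enzymes 5 were lower in the deposited values, 10 after quantile normalization (median -0.10) and 9 after cyclic loess (median -0.03). Under those scalings and with each array left out in turn, 10 of the 12 uptake and carnitine genes were lower throughout, the exceptions being Gpihbp1 and Mlycd. Of the matrix enzymes Acadl, Eci1 and Eci2 were higher throughout and Acadsb was lower throughout.

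**Figure D4:**
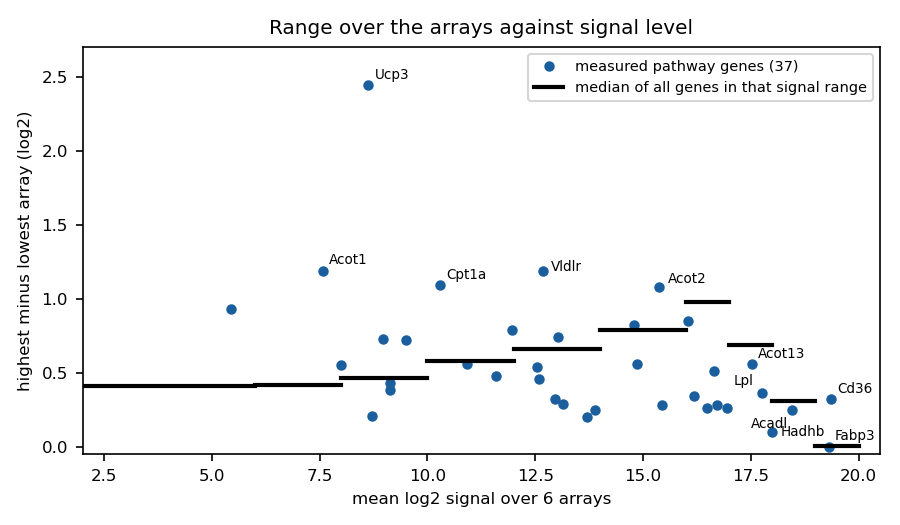
Distance between the highest and the lowest of the 6 arrays (log2, vertical axis) against mean log2 signal, for the 37 measured genes (points) and as the median of all genes in each signal range (bars). Fabp3 lies at 0.00 and Ucp3 at 2.44, and the bars drop to 0.311 between 18 and 19 and to 0.0032 above 19.

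Genes of the pathway also varied between mice within a group. Ucp3, a mitochondrial carrier of muscle that is known to follow fatty acid supply, had the widest range, from 7.25 to 9.69. It measured 7.25, 9.11 and 8.63 with finerenone and 9.69, 9.17 and 7.90 without. Its lowest values were on finerenone replicate 1 and untreated replicate 3, and its difference of -0.59 ± 0.61 (SE) ranged from -1.10, when untreated replicate 3 was left out, to -0.05, when finerenone replicate 1 was, and was -0.20 without untreated replicate 1.

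Pdk4, the kinase that shuts off pyruvate dehydrogenase when fat is burnt, was in the list of other fuel genes and measured 17.46, 17.95 and 17.43 against 19.24, 18.47 and 17.15. Untreated replicates 1 and 2 were its 2 highest arrays and untreated replicate 3 its lowest. The 2 highest arrays for Cpt1a and Angptl4 were the same as for Pdk4. Its difference was -0.68 ± 0.50 (SE), and -0.20 ± 0.41 without untreated replicate 1.

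**Figure D5:**
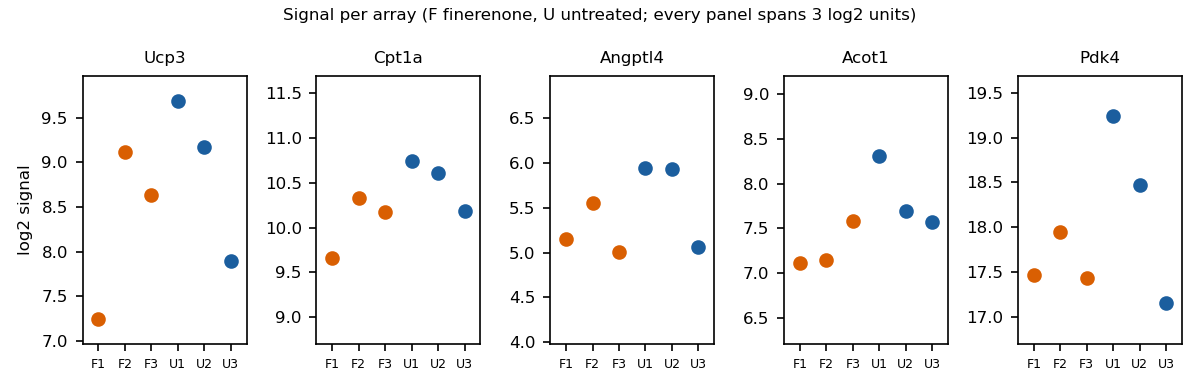
Log2 signal of Ucp3, Cpt1a, Angptl4, Acot1 and Pdk4 in each array (F1 to F3 finerenone, U1 to U3 untreated), with every panel spanning 3 log2 units. Each of the 5 genes has its highest value in U1, and untreated values reach down into the finerenone range in every panel.

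Of the regulators of these genes, 10 of 12 measured were lower, with a median of -0.04, and 0 had an unadjusted p below 0.05 in either direction. Ppara, the PPAR receptor that drives fatty acid oxidation, differed by -0.03 ± 0.22 (SE), or by -0.17 without untreated replicate 1. Med1, a coactivator subunit, measured 9.56, 9.51 and 9.61 against 9.65, 9.83 and 9.69 and differed by -0.16 ± 0.08. Ppargc1a, the coactivator PGC-1 alpha, differed by 0.34 ± 0.25. Without that array the list median was -0.11, with 8 of 12 lower.

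In the list of other uptake and carnitine genes, 9 of 16 were higher with a median of 0.05, and 0 had an unadjusted p below 0.05. Slc22a5, the carnitine importer, measured 7.99, 8.26 and 7.94 against 7.93, 7.73 and 7.82 and differed by 0.24 ± 0.11 (SE). Dbi, the acyl-CoA binding protein, differed by 0.39 ± 0.17, or by 0.21 without untreated replicate 1. Every value of Slc22a5 and Dbi was under the 95th percentile of the negative controls of its array (8.35 to 8.73). Slc25a20, the carrier that exchanges acylcarnitine for carnitine across the inner membrane, differed by 0.26 ± 0.15, or by 0.12 without untreated replicate 1. With all arrays its sign was opposite to that of the 6 listed genes of the shuttle and its malonyl-CoA control.

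In triglyceride and lipid droplet turnover 11 of 19 were higher with a median of 0.08, which was -0.04 without untreated replicate 1, and 0 had an unadjusted p below 0.05. Gpam, which starts triglyceride synthesis, differed by -0.36 ± 0.19 (SE), Lipe, the hormone-sensitive lipase, by -0.19 ± 0.10 and Dgat1, which completes triglyceride synthesis, by 0.14 ± 0.10. Gpam differed by -0.18 and Dgat1 by 0.05 without untreated replicate 1. Of the other fuel switch genes 10 of 13 were lower with a median of -0.12, again with 0 at an unadjusted p below 0.05. Prkaa2, a catalytic subunit of the AMP-activated kinase, measured 13.61, 13.36 and 13.57 against 13.62, 13.82 and 13.83. Its groups did not overlap and differed by -0.25 ± 0.11. Prkaa1, the other catalytic subunit, differed by -0.27 ± 0.12, and Fasn, the fatty acid synthase, by -0.30 ± 0.14. Without untreated replicate 1 the list median was -0.17, and Prkaa2 at -0.32 ± 0.11 and Acly, which makes acetyl-CoA for lipid synthesis, at -0.30 ± 0.11 had an unadjusted p below 0.05 in limma (15.4% of the list, against 1.93% of all genes). Groups did not overlap for 4 of the 13 on the lower side (30.8%, against 8.36% of all genes). Every value of Lipe, Dgat1, Fasn and Acly was under the 95th percentile of the negative controls of its array (8.35 to 8.73).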

How the data were processed

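The authors deposited log2 signals per probe set, made by RMA; the submitters' processing notes list Expression Console and Transcriptome Analysis Console. Their versions and the genome build were not given in the sources used here. Of 65956 transcript clusters, 30604 had 1 symbol in the platform annotation (repeats of a symbol counted once), updated by Entrez identifier or unique synonym to RefSeq genes of GRCm38.p6. The brightest cluster was kept for 429 genes with several, leaving 30063 genes, with no filter on dim genes.

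Groups were compared with limma 3.58.1 in R 4.3.3 (lmFit, eBayes, two-sided, no covariate), adjusted by Benjamini-Hochberg over all genes, threshold 0.05, and tested on simulated data. Python 3.11.15 handled the tables and figures. The number of arrays, 3 per group, limits precision; an exact permutation test could not go below 0.1. Summed marker signal is the log2 of summed linear signals.

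The members and lists were chosen with earlier results of these data known. Named were genes at an unadjusted p below 0.05 or with separated groups and 7 rate-controlling members. Up to 3 genes with the smallest p were named per related list. Per-array values of Angptl4, Plin5, Hadhb, Eci1 and Ucp3, and the CCAAT box, were chosen after their values were seen. The same holds for the named values of Ppara, Pdk4, Slc25a20, Acly, Mybpc3, Tnni3, Myl3 and Ehhadh. Alternatives were 3 scalings, 2 filters, averaging the clusters of a gene, weighting the arrays, a robust prior with a trend, a block for the replicate number and leaving out single arrays.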

Additional observations from a re-analysis of the deposited data

How the results depend on the processing

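The count of adjusted calls was 0 under every alternative run. The uptake, carnitine, activation and Ucp3 medians kept their direction throughout. Under quantile normalization the median over the pathway genes was -0.17, and it was -0.26 for binding proteins, -0.12 for the hydratase to thiolase steps, -0.02 for the auxiliary enzymes, -0.13 for the electron transfer flavoprotein genes, 0.00 for triglyceride turnover and -0.22 for fuel switch genes. It also turned Fabp3 to -0.02, Hadh to -0.12, Acaa2 to -0.16, Decr1 to -0.17, Ech1 to -0.10 and Etfa to -0.09. Under cyclic loess the median over the pathway genes was -0.12, and Fabp3 became -0.07, Acadm -0.00, Acaa2 -0.05, Decr1 -0.07 and Ech1 -0.06. Median centring gave -0.01 for Fabp3 and -0.00 for Decr1, and array weights gave -0.04 for Acaa2, -0.01 for Decr1 and 0.03 for the median of the other uptake and carnitine genes. Non-overlapping pathway genes on the higher side numbered 0 under all 3 scalings. The pathway genes on the lower side at an unadjusted p below 0.05 in limma numbered 3 with a trended robust prior and 3 among genes with a mean of at least 6. That filter left 997 higher and 309 lower genes in all, and the filter at the median signal left 370 lower, where fewer genes were tested; the latter moved the other uptake and carnitine median to 0.07. Other causes were not tested.

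With single arrays left out, pathway genes at an unadjusted p below 0.05 numbered 0 to 1 on the higher and 1 to 5 on the lower side, and non-overlapping ones 2 to 5 and 7 to 10. Over all genes the former counts were 1185 to 2166 and 500 to 764. Non-overlap is easier to reach with fewer arrays. Without untreated replicate 1 it held for 13.9% of all genes on the higher and 8.36% on the lower side, against 8.17% and 4.17% with all arrays. Medians ranged from -0.28 to 0.00 for binding proteins, -0.13 to 0.12 for dehydrogenases, -0.03 to 0.16 for the hydratase to thiolase steps, 0.02 to 0.07 for other uptake genes, -0.04 to 0.07 for triglyceride turnover and -0.11 to -0.01 for regulators. Single genes whose sign turned ranged from -0.16 to 0.11 for Gpihbp1, -0.00 to 0.00 for Fabp3, -0.36 to 0.16 for Fabp4, -0.22 to 0.02 for Mlycd, -0.22 to 0.17 for Acadvl, -0.13 to 0.23 for Acads, -0.09 to 0.01 for Hadha, -0.04 to 0.02 for Hadhb, -0.00 to 0.36 for Echs1, -0.09 to 0.16 for Acaa2, -0.06 to 0.08 for Decr1, -0.02 to 0.08 for Ech1 and -0.09 to 0.03 for Etfdh.

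The labels number the mice 1 to 3 in each group without stating a link, and deviations of same-numbered arrays correlated at -0.154, 0.058 and 0.059 across genes. With the replicate number as a block, 5 pathway genes on the lower side and 0 on the higher side had an unadjusted p below 0.05 in limma, the median was -0.05 and 0 genes passed adjustment. Signal near the negative controls (Angptl4) and at the ceiling (Cd36, Fabp3) limits the differences that can be measured. Acot1 and Mlycd lay above the medians of the negative controls but under their 95th percentile (8.35 to 8.73) on every array, and Ucp3 did so on some arrays.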

Other observations

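Peroxisomes shorten very long and branched fatty acids before mitochondria take them over. With all arrays used, their genes were mostly higher in treated hearts, as were 58.2% of all genes. Of 16 measured genes 13 were higher, with a median log2 difference of 0.11 beside 0.03 over all genes, and 2 of them had an unadjusted p below 0.05 (12.5% of the list, against 5.69% of all genes). Nudt19, a peroxisomal hydrolase of coenzyme A, measured 10.96, 11.03 and 10.82 with finerenone and 10.14, 10.58 and 10.69 without. Its groups did not overlap, and the difference was 0.46 ± 0.16 (SE), or 0.30 without untreated replicate 1. Scp2, which carries lipids and holds a thiolase, measured 11.17, 11.41 and 11.33 against 10.89, 11.10 and 11.13, a difference of 0.27 ± 0.11. Crot, which attaches medium chains to carnitine for export from peroxisomes, differed by 0.18 ± 0.08 with groups that did not overlap. Ehhadh, the peroxisomal bifunctional enzyme, went the other way with -0.21 ± 0.26, and its highest value was on untreated replicate 1, the array with hepatocyte transcripts. Without that array Ehhadh was 0.08, 10 of 16 were higher and the median was 0.03, the same as the 0.03 over all genes in that fit. The count at an unadjusted p below 0.05 was then 1 (6.25% of the list, against 4.5% of all genes), with Nudt19 in it and Scp2 at 0.19 ± 0.10 (limma unadjusted p = 0.124). No member passed adjustment over all genes in limma (smallest adjusted p = 0.604).

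Among other mitochondrial genes of acyl-CoA and ketone use, 11 of 18 were higher with a median of 0.08, which was -0.00 without untreated replicate 1, and 0 had an unadjusted p below 0.05. Hsd17b10, a dehydrogenase of branched acyl-CoA, differed by 0.41 ± 0.18 (SE). Hibch, a hydrolase of valine breakdown, differed by 0.32 ± 0.14 with groups that did not overlap. Mcee, an epimerase of propionyl-CoA use, differed by 0.48 ± 0.22, and its lowest array was untreated replicate 1 at 12.69. Without that array the 3 differed by 0.23, 0.18 and 0.26.

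For 3 of the pathway genes a further, dimmer cluster carried the same symbol. The dimmer Fabp3 cluster, at 4.64 with finerenone and 4.43 without, differed by 0.21 ± 0.12 (SE) near the negative controls, where the bright one was at the ceiling. Those of Acsl5 and Mlycd differed by 0.11 ± 0.14 and -0.11 ± 0.25, with the sign of the cluster used.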
